A study of Mus musculus with 272 samples.

Results

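The heavy side of the sucrose gradient was compared between mouse zygotes and 2-cell embryos. Its 30 libraries, of 272 in the series, are fractions 6 to 10 of 3 zygote and 3 2-cell gradients, lettered A, B and C. For each gradient the CPM of a gene (its reads scaled to a library total of 1 M) was averaged over the 5 heavy fractions, which gave 3 values per stage, and only these 6 gradient means entered the fit. The study spun lysates of oocytes and embryos at 8 stages through 10 to 40% sucrose and sequenced polyadenylated RNA from 10 equal fractions, numbered in the labels without further names. Each gradient held about 100 zygotes or 2-cell embryos, lysed with cycloheximide, which holds ribosomes on their transcripts. Transcriptome libraries of the same stages came from 4 pools of 20 embryos each. The labels of both stages give the organism, the stage and the fraction, and no strain, genotype, age of the donors or culture. Each library pools embryos, so the p-values measure the spread between pooled gradients.

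A transcript that carries many ribosomes sediments deep into a sucrose gradient, so a transcript's share of the RNA there is read as a sign of how heavily it is translated. The mouse zygote lives largely on RNA stored in the oocyte. In the 2-cell embryo most of that store is degraded, and the embryo's own genome is transcribed in its first large wave. That wave is led by a set of short-lived genes that includes the Zscan4 and Usp17l families, copies of Eif1ad and some Obox homeobox genes. A CPM is a share of a library, so it cannot tell a gain of 1 transcript from a loss of others.

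The heavy libraries held 11.05 to 30.0 M reads in zygotes and 6.95 to 18.4 M in 2-cell embryos. Genes with at least 1 CPM numbered 6749 to 9688 per zygote library and 2021 to 6187 per 2-cell library. A gene with at least 100 CPM in 2 gradients of a stage had 0 reads in the same fraction of the third in 0.131% of 21390 cases in zygotes and in 7.52% of 13224 cases in 2-cell embryos. Across the 10535 genes tested, log2 values of the gradient means correlated at 0.876 to 0.899 between zygote gradients and at 0.599 to 0.628 between 2-cell gradients. These sparser 2-cell libraries move with every fall given here, and their part in it was not tested. The 2-cell fraction 10 library of gradient B stood apart with 2021 genes at 1 CPM or more. The 8 oocyte and zygote markers summed to 14820 to 20670 CPM in the zygote gradients and to 4166 to 5490 CPM in the 2-cell gradients, and the 6 2-cell markers to 0.656 to 2.48 CPM and 1238 to 2155 CPM. Of 13 cumulus and granulosa markers 5 were in the table, with sums of 14.8 to 41.7 CPM in zygotes and 0.0319 to 13.3 CPM in 2-cell embryos, and only Cyp19a1 averaged at least 1 CPM. Of 11 markers of blastocyst lineages 5 averaged at least 1 CPM in each stage, and the sums were 134 to 165 CPM and 168 to 211 CPM. In each stage 3 stood at 0, and Cdx2, the trophectoderm factor, had 0 reads in all 6 gradients. Of 6 blood markers 2 were in the table, and Hba-a1, an alpha globin, stood at 0.0238, 0 and 0 CPM in the zygote gradients and at 65.5, 150.4 and 123 CPM in the 2-cell gradients. It was also at 33.3 to 53.2 CPM (sum of both blood markers) in the 2-cell transcriptomes and at 0 in those of zygotes. In pooled embryos fewer cells of a type and less RNA per cell cannot be told apart.

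Between zygote and 2-cell embryo, 1904 of the 10535 genes tested changed in the heavy fractions (18.1%), 493 to a higher level (4.68%) and 1411 to a lower one (13.4%). A gene counts as changed here when limma's moderated test gave a Benjamini-Hochberg adjusted p under 0.05 and the change was at least 1 on the log2(CPM + 1) scale, on which all changes are given as 2-cell minus zygote. All 1904 had no overlap between the 3 zygote and the 3 2-cell gradients, as had 3875 of the genes tested. Lack of overlap, here and in all paragraphs below, therefore goes with the call of a gene and adds nothing to it. Of the genes tested, 244 had under 1 CPM in every zygote gradient and 884 in every 2-cell gradient. These passed the filter on low values only through the other stage and had to differ. Of the genes that fell, 489 had at most 3 reads in each 2-cell gradient, and of those that rose, 103 had at most 3 reads in each zygote gradient. The median change over all genes tested was -0.82. Quantile normalization moved that median to -0.07 and the share of higher genes among the calls from 25.9% to 57.3% (653 higher, 487 lower), and centring each gradient on its median gave 48.8% (680 higher, 713 lower). Under the deposited CPM and both of these scalings, 483 genes rose (4.58%) and 331 fell (3.14%). Nearly all rises were called under each of these scalings, while most falls were not. Both scalings moved the median change up, to -0.07 and -0.26, which favours rises over falls. A rise that stays called under them, here and below, therefore gains little from it. Rises were not the steadier side when a zygote gradient was left out. Without zygote gradient A, B or C the calls numbered 1027, 1114 and 1227, and without 2-cell gradient A, B or C 1925, 2369 and 2085. Higher genes made up 19.96, 20.92 and 23.06% of the calls without zygote gradient A, B and C, beside 25.9% with all gradients. The count of higher genes thus shrank more, in proportion, than that of lower genes. Without 2-cell gradient A, B and C their share was 25.09, 25.03 and 23.41%. Of 113 called genes named here, 75, 84 and 89 stayed called without zygote gradient A, B and C, and at least 107 without any single 2-cell gradient. The quasi-likelihood test of edgeR on the recovered reads called 372 higher and 648 lower genes, and DESeq2 on the same reads 1163 and 1258.

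Genes of the first wave of embryonic transcription rose together. The list of 2-cell transient genes had 36 members in the table, of which 31 were tested, and 28 of these rose and 0 fell, all 28 under each of the 3 scalings. The median change of the 31 was 5.76, or 7.11 with genes at 0 set to the floor of 3 reads. These are descriptions: 25 of the 31 had under 1 CPM in every zygote gradient and entered the test only through the 2-cell gradients, so they had to differ, and the list is named for transcription in 2-cell embryos. Sp110, Arg2 and Tdpoz1 were tested and not called: Sp110, a nuclear body protein, had overlapping gradients (335, 259 and 244 CPM in zygotes, 146, 298 and 125 CPM in 2-cell embryos), and Tdpoz1 went from 0 CPM in each zygote gradient to 8.67, 1.16 and 36.1 CPM (adjusted p = 0.066).

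By change in the heavy fractions, the 15 leading genes with a standard gene symbol (no predicted gene, clone or pseudogene), a mean of at least 50 CPM in the higher stage and no overlap between the stages were Eif4a3l2, Eif4a3l1, Mt1, Eif1ad7, Zscan4d, Usp17lb, Eif1ad3, Prps1, Pramel20, Pramel16, Eif1ad8, Tdpoz4, Inka1, Nop16 and Pramel24, with changes of 8.80 to 6.93. Promoter sequence from RefSeq (GRCm38.p6) was at hand for 11 of the 15. In 3 of them the TATA box letters TATAAA lie on the gene's strand within 100 bases before the annotated start. Those 100 bases are shown because these genes are among the 15 largest rises, with the motif in capitals, read 5′ to 3′ along the gene.
Zscan4d, chr7:11166149-11166248, minus strand: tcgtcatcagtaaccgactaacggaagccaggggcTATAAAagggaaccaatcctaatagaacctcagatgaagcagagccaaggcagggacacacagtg
Usp17lb, chr7:104842584-104842683, minus strand: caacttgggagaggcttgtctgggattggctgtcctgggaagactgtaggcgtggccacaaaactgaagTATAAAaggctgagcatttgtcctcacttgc
Pramel20, chr4:143567367-143567466, plus strand: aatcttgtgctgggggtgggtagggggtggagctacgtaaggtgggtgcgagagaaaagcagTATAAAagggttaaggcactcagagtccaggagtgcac
The motif begins 65, 31 and 38 bases before the start of Zscan4d, Usp17lb and Pramel20. Of all 32851 promoter windows in the RefSeq table, 3.80% hold TATAAA in these 100 bases on the gene's strand and 2.23% on the other strand. Among the 10568 windows of the genes tested here, these shares were 1.94% and 0.946%. A match is a description of the letters and no evidence of a bound factor.

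Eif4a3l2, a copy related to the exon junction helicase Eif4a3, stood at 0.583, 0.457 and 0.106 CPM in zygote gradients A, B and C and at 698, 532 and 609 CPM in 2-cell gradients A, B and C, a change of 8.80 ± 0.61 (SE, adjusted p = 0.00189). Zscan4d, a zinc finger protein of the 2-cell stage, stood at 0.0465, 0.177 and 2.37 CPM in zygotes and 782, 522 and 249.9 CPM in 2-cell embryos (8.19 ± 0.81, adjusted p = 0.00625). Usp17lb, a deubiquitinase, went from 0.0357, 0.057 and 0 CPM to 252, 359.6 and 148 CPM (7.86 ± 0.79, adjusted p = 0.00625). In all 3 genes every 2-cell gradient lay far above every zygote gradient, and the 2-cell gradients spread more in Zscan4d and Usp17lb than in Eif4a3l2. All 8 Eif1ad copies, all 6 Zscan4 genes and all 4 Usp17l genes in the table rose, with changes of 4.80 to 8.36, 4.27 to 8.19 and 3.73 to 7.86. These families were grouped after their values were seen, and 8 of 8, 5 of 6 and 4 of 4 passed the filter only through the 2-cell gradients. Their copies are nearly identical, as are those of Tdpoz and Pramel, so how reads were divided among the members is uncertain.

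Genes outside those families stood among the same 15. Mt1, the metal-binding metallothionein 1, was at 1.45, 0.288 and 0 CPM in the zygote gradients and at 599, 458 and 437 CPM in the 2-cell gradients (8.39 ± 0.68, adjusted p = 0.00272). Prps1, which makes the ribose phosphate donor of nucleotide synthesis, was at 0.101, 3.15 and 0.136 CPM and 245, 534 and 383 CPM (7.74 ± 0.82, adjusted p = 0.00747). Nop16, a nucleolar protein of ribosome assembly, was at 0, 0 and 0.159 CPM and 84, 126 and 203 CPM (6.95 ± 0.84, adjusted p = 0.00875). Inka1, an inhibitor of the kinase Pak4, was among the steadiest, with 139.9, 128 and 138 CPM in the 2-cell gradients against 0.0714, 0.0103 and 0 CPM in zygotes. Relative to their level, Prps1 and Nop16 spread more between the 2-cell gradients than Mt1 and Inka1.

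**Figure D1:**
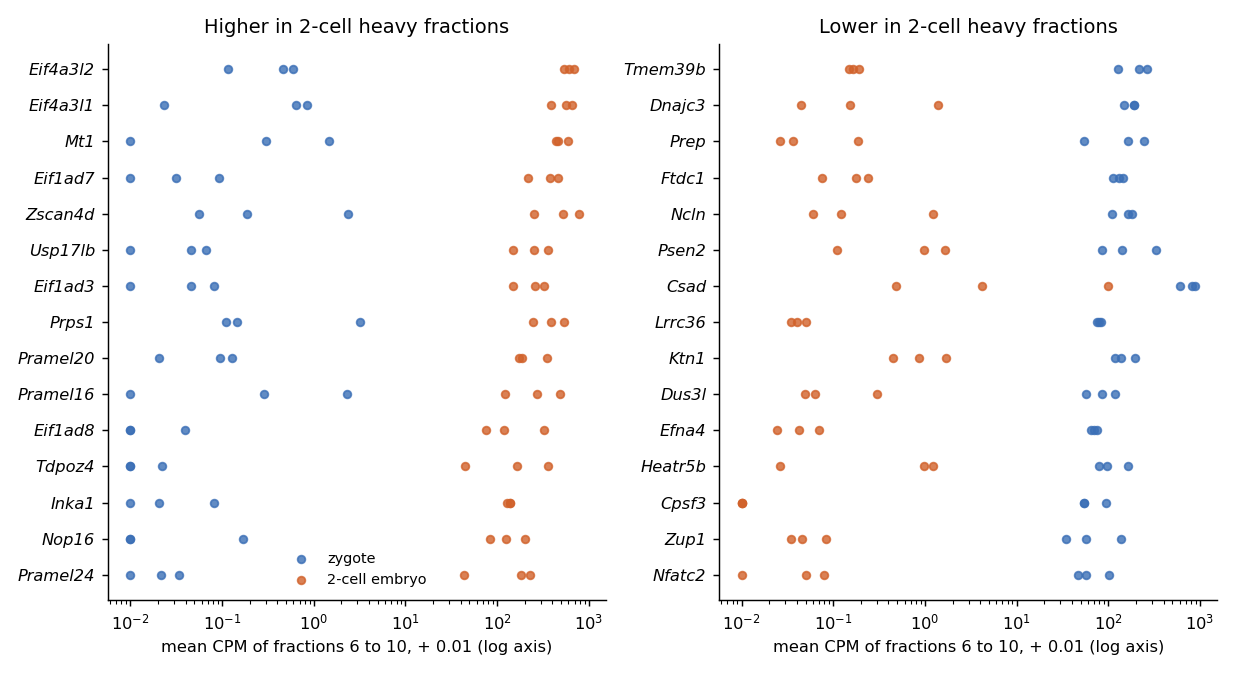
Mean CPM of fractions 6 to 10, plus 0.01, on a log axis for the 15 largest rises (left) and the 15 largest falls (right), with 1 point per gradient (blue, 3 zygote gradients; orange, 3 2-cell gradients). The choice of these genes required that the stages not overlap, and the 2-cell points of Csad, from 0.471 to 100.3 CPM, are widely spread.

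Of 24 regulators of genome activation tested, 3 rose and 1 fell (12.5% and 4.17%, beside 4.68% and 13.4% of all genes tested), with a median change of 0.34, and 3 and 0 did so under all scalings. E2f1, a cell cycle transcription factor, rose from 704, 707 and 747 CPM to 1538, 1522 and 1649.8 CPM (1.12 ± 0.16, adjusted p = 0.00875), with gradients of each stage close together, although in fraction 10 alone it was lower in 2-cell embryos (-2.73). Dppa4, an activator of 2-cell genes, rose from 1.61, 0.608 and 0.771 CPM to 90.8, 7.77 and 61.4 CPM (4.24 ± 1.12, adjusted p = 0.0391), with 2-cell gradient B far below the other 2. Gabpa, an ETS-family factor, had 0 reads in every zygote gradient and 69.6, 16 and 71.6 CPM in the 2-cell gradients, at least 1288-fold higher against a floor of 3 reads in the shallowest library of each gradient. Zfp57, which guards imprinted methylation, fell from 1012, 698 and 835 CPM to 319, 469 and 320.2 CPM (-1.20 ± 0.26, adjusted p = 0.0208), a call not kept under every scaling. Of 6 Obox genes tested 2 rose and 1 fell: Obox3 went from 0.0357, 0.0466 and 0.0268 CPM to 52.4, 226 and 131 CPM and Obox6 from 0 reads to 5.58, 143 and 70.8 CPM (at least 1796-fold higher), while Obox2 went from 988, 661 and 1159 CPM to 41.5, 135 and 249 CPM (-3.01 ± 0.63, adjusted p = 0.0179). The Obox median was -0.09 and turned to 0.47 with median centring.

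Of 90 genes of RNA polymerase II, its general factors and Mediator, 4 rose and 10 fell (4.44% and 11.1%), close to the 4.68% and 13.4% of all genes tested, and 4 and 5 did so under all scalings. Their median was -0.35 and became positive under both scalings (0.18 and 0.21). Polr2c, a core polymerase subunit, rose from 589, 701 and 851 CPM to 1905, 2378 and 1598 CPM (1.45 ± 0.23, adjusted p = 0.00875), and Polr2f, another subunit, from 104, 97.5 and 111 CPM to 430.2, 362 and 223 CPM (1.64 ± 0.36, adjusted p = 0.0207). Gtf2i, a general and signal-dependent transcription factor, was at 0, 0 and 0.0101 CPM in zygotes and 54.2, 61.5 and 48.7 CPM in 2-cell embryos (5.79 ± 0.78, adjusted p = 0.00875). Among the falls was Taf1a, a subunit of the RNA polymerase I factor that the list's pattern also took in, from 90, 80.5 and 165 CPM to 16.7, 5.38 and 10.2 CPM (-3.31 ± 0.68, adjusted p = 0.017). The stages did not overlap in these 4 genes.

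Of 33 oocyte genes tested 3 rose and 13 fell (9.09% and 39.4%, beside 4.68% and 13.4% of all genes tested), and 3 and 9 did so under all scalings, with a median change of -0.72. The 3 that rose were Omt2a, Omt2b and Oog3, all expressed in the oocyte. Omt2b was at 857, 875 and 1336 CPM in the zygote gradients and at 8208, 7713 and 6231 CPM in the 2-cell gradients (2.87 ± 0.21, adjusted p = 0.00208). Omt2a was at 537, 572 and 874 CPM and 4640.3, 5019.7 and 4061 CPM (2.82 ± 0.22, adjusted p = 0.00223), and Oog3 at 1860.1, 1614 and 2668 CPM and 4707, 4069.6 and 5744 CPM (1.26 ± 0.22, adjusted p = 0.0104). The 2 stages were clearly apart in each.

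The Tcl1 genes, oocyte-expressed relatives of the Akt coactivator Tcl1, also rose. This family was picked after its values were seen, and its copies are similar enough that the division of reads is uncertain. All 6 rose in the heavy fractions (changes of 1.78 to 3.24, median 2.94), under each scaling. Tcl1 went from 5849, 8261 and 7647 CPM to 22074, 34279 and 19883 CPM (1.78 ± 0.22, adjusted p = 0.00875), and Tcl1b1 from 1117, 1542 and 1943 CPM to 12745, 14159 and 12712 CPM (3.14 ± 0.20, adjusted p = 0.00185). In the transcriptome 1 of 6 was called, with a median change of 0.72. In the light fractions of the same gradients all 6 rose too, with a median of 3.02. All 6 were also called in the heavy change beyond the transcriptome, 5 of them under every scaling. In Tcl1b1 that difference was 2.56 ± 0.20 (adjusted p = 9e-06).

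The oocyte genes that fell include those of the egg coat and of signals to the follicle. Zp3, a coat glycoprotein that binds sperm, fell from 2870.0, 2149 and 3047 CPM to 392, 458 and 361 CPM (-2.72 ± 0.21, adjusted p = 0.00223). Gdf9, a growth factor of the oocyte, fell from 3569, 4151 and 2532 CPM to 1013, 1158 and 919 CPM (-1.71 ± 0.22, adjusted p = 0.00875). Bmp15, its partner, fell from 3251, 2666 and 2559 CPM to 858, 1410.4 and 1707 CPM (-1.14 ± 0.27, adjusted p = 0.0253), though not under every scaling, while its transcriptome change of 0.34 was not called. Both factors act on the surrounding follicle cells. H1f8, the oocyte linker histone, fell from 2339, 3102 and 4410.0 CPM to 149, 483 and 478 CPM (-3.28 ± 0.49, adjusted p = 0.00875). Mos, the kinase that holds the egg in meiotic arrest, fell from 321, 409 and 302 CPM to 1.7, 36.7 and 24.6 CPM (-4.64 ± 0.98, adjusted p = 0.0186). No zygote gradient overlapped a 2-cell gradient in these 5. In the subcortical maternal complex and Nlrp list, 0 of 16 tested rose and 6 fell (37.5% lower), beside 4.68% higher and 13.4% lower over all genes tested. Under all scalings 4 of the 16 fell, beside 3.14% of all genes. The list's median was -1.07, near the -0.82 of all genes. Ooep, a core subunit of the complex, fell from 9379, 10204 and 5267 CPM to 1429, 2153 and 1503 CPM (-2.26 ± 0.28, adjusted p = 0.00875), Tle6 from 2612, 3748 and 1777 CPM to 456, 490.1 and 357 CPM (-2.59 ± 0.30, adjusted p = 0.00875) and Padi6, a component of the oocyte's cytoplasmic lattices, from 2663, 3344 and 1699.9 CPM to 369.9, 794 and 459.5 CPM (-2.27 ± 0.36, adjusted p = 0.00875).

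By the same rule the 15 largest falls were Tmem39b, Dnajc3, Prep, Ftdc1, Ncln, Psen2, Csad, Lrrc36, Ktn1, Dus3l, Efna4, Heatr5b, Cpsf3, Zup1 and Nfatc2, with changes of -7.38 to -5.97. All were called under each scaling. Tmem39b, a membrane protein, was at 215, 261 and 127 CPM in the zygote gradients and at 0.155, 0.182 and 0.138 CPM in the 2-cell gradients (-7.38 ± 0.79, adjusted p = 0.00747). Dnajc3, a co-chaperone of the endoplasmic reticulum, was at 189, 147 and 189 CPM and 0.141, 1.36 and 0.0344 CPM (-6.96 ± 0.80, adjusted p = 0.00875), and Ktn1, the kinesin-binding membrane protein kinectin, at 138, 118 and 196 CPM and 0.847, 1.7 and 0.439 CPM. The 2-cell gradients of these 3 genes lay at or under 1.70 CPM. Psen2, the catalytic subunit of gamma-secretase, was at 141, 334 and 84.3 CPM and 0.10, 0.964 and 1.64 CPM (-6.48 ± 0.89, adjusted p = 0.00875). Csad, an enzyme of taurine synthesis, was the least even, at 818, 877 and 609 CPM in zygotes and 0.471, 100.3 and 4.19 CPM in 2-cell embryos (-6.37 ± 1.4, adjusted p = 0.021). Cpsf3, the endonuclease that cuts pre-mRNA before polyadenylation, had 53.7, 54.1 and 94.1 CPM in zygotes and 0 reads in all 3 2-cell gradients, at least 947-fold lower against the floor of 3 reads.

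Calls among the RNA decay and storage factors of the oocyte can be read against 4.68% higher and 13.4% lower over all genes tested. In the maternal RNA decay list 2 of 34 tested rose and 3 fell (5.88% and 8.82%), with a median of -0.23 that turned to 0.33 with median centring. Pabpn1l, a poly(A)-binding adaptor of the deadenylation factor Btg4, fell from 1095, 1257 and 1172 CPM to 49.7, 70.9 and 48.5 CPM (-4.38 ± 0.29, adjusted p = 0.00185), and Edc4, a scaffold of decapping, from 476, 325 and 411 CPM to 17.5, 21.2 and 70.9 CPM (-3.69 ± 0.59, adjusted p = 0.00875). Pan3, of the Pan2-Pan3 deadenylase, rose from 38.3, 25.5 and 36.5 CPM to 236, 198 and 121 CPM (2.40 ± 0.47, adjusted p = 0.0145), though it was lower in fractions 6, 8 and 9 taken alone. Of 37 RNA-binding regulators of translation 1 rose and 7 fell (2.70% and 18.9%), with a median of -0.68. Zar1, an RNA-binding protein of the oocyte's stored transcripts, fell from 3227, 3695 and 2959.8 CPM to 275, 329 and 179.6 CPM (-3.69 ± 0.26, adjusted p = 0.00189) and its relative Zar1l from 122, 133 and 136 CPM to 19.2, 2.25 and 0.0319 CPM (-5.01 ± 1.13, adjusted p = 0.0228). Cpeb1, the cytoplasmic polyadenylation factor, fell from 266, 360.0 and 353 CPM to 65.3, 75.9 and 144 CPM (-1.84 ± 0.41, adjusted p = 0.0213), a call not kept under every scaling. The 1 that rose was Igf2bp1, an mRNA-binding protein of growing tissues, from 2.43, 0 and 0.0106 CPM to 89.1, 161 and 149 CPM (6.42 ± 0.90, adjusted p = 0.00875). No gradients overlapped between the stages in any of these.

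Cytosolic ribosomal protein genes, whose products form the ribosome itself, had more rises than falls. Of 77 tested 11 rose and 4 fell (14.3% and 5.19%, beside 4.68% and 13.4% of all genes), and 11 and 0 did so under all scalings. Their median change was 0.62, and 1.36 and 1.19 under the 2 other scalings. Rplp0, of the ribosome's stalk, rose from 451, 474 and 377 CPM to 3141, 2889 and 2541 CPM (2.72 ± 0.18, adjusted p = 0.00185). Rpl41, the smallest ribosomal protein, rose from 35.3, 29.2 and 40.4 CPM to 462, 409.6 and 352 CPM (3.51 ± 0.36, adjusted p = 0.00683), and Rplp2, also of the stalk, from 28.3, 31 and 47.5 CPM to 297, 229 and 131 CPM (2.55 ± 0.49, adjusted p = 0.0137). Rps14, of the small subunit, rose from 111, 71 and 119 CPM to 322, 285 and 245 CPM (1.52 ± 0.35, adjusted p = 0.0254). The gradients of both stages were well apart in these 4. Rpl13, of the large subunit, fell from 390.3, 279 and 460.5 CPM to 69.8, 131 and 70.4 CPM (-2.08 ± 0.40, adjusted p = 0.0133), and Fau and Rpl11 were also called lower, each only in part of the scalings. Ribosomal protein genes have many processed pseudogenes, so the reads of single members are uncertain.

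Calls among factors that act on the ribosome can be set against 4.68% higher and 13.4% lower over all genes tested. Of 40 initiation factors 2 rose and 4 fell (5% and 10%, median -0.67), of 15 elongation and termination factors 2 rose and 1 fell (13.3% and 6.67%, median -0.25, positive under both other scalings), and of 20 genes of mTOR and eIF2 kinase control 1 rose and 1 fell (5% each, median -0.95). Eif4e, the cap-binding protein, rose from 232, 146 and 199.6 CPM to 471, 369.8 and 513 CPM (1.24 ± 0.30, adjusted p = 0.03). Its repressor Eif4ebp1 rose from 6.33, 7.71 and 6.66 CPM to 132, 70.2 and 127 CPM (3.76 ± 0.63, adjusted p = 0.00943). Eef1a1, which brings aminoacyl-tRNA to the ribosome, rose from 48.6, 66.9 and 51.8 CPM to 327, 347 and 362 CPM (2.62 ± 0.34, adjusted p = 0.00875). These 3 had gradients that did not overlap, but Eif4e was lower in fraction 6 alone (-3.43), Eef1a1 in fraction 8 alone (-1.15) and Eif4ebp1 in fraction 10 alone (-0.37). Eif3e, a subunit of initiation factor 3, fell from 49.6, 34 and 54.3 CPM to 0, 0.25 and 0.161 CPM (-5.35 ± 0.79, adjusted p = 0.00875).

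Of 64 ribosome biogenesis genes 2 rose, Nop16 and Nop2, and 9 fell, 1 of them under all scalings (median -1.03). At 14.1% lower this list was close to the 13.4% of all genes tested. Polr1a, the largest subunit of RNA polymerase I, fell from 25.4, 24.7 and 55.2 CPM to 0.174, 1.36 and 0 CPM (-4.58 ± 0.86, adjusted p = 0.0123). Of 21 aminoacyl-tRNA synthetase genes 1 rose and 5 fell (23.8% lower, 4 genes under all scalings, median -1.08). Aars, the alanyl-tRNA synthetase, fell from 28.8, 62.3 and 19.7 CPM to 0.0664, 0 and 0.0115 CPM (-5.05 ± 0.80, adjusted p = 0.00875), and Hars, the histidyl-tRNA synthetase, from 50.6, 57.4 and 35.5 CPM to 0, 4.22 and 0.0319 CPM (-4.77 ± 1.00, adjusted p = 0.018). Each 2-cell gradient lay under each zygote gradient in these 3 genes. Mitochondrial ribosomal proteins had 0 of 74 higher and 9 lower (12.2%, near the share of all genes), 3 of them under all scalings (median -1.27). Mrps31, of the mitochondrial small subunit, fell from 68.3, 67.4 and 58.2 CPM to 0.0334, 3.72 and 0 CPM (-5.27 ± 0.97, adjusted p = 0.0118).

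**Figure D2:**
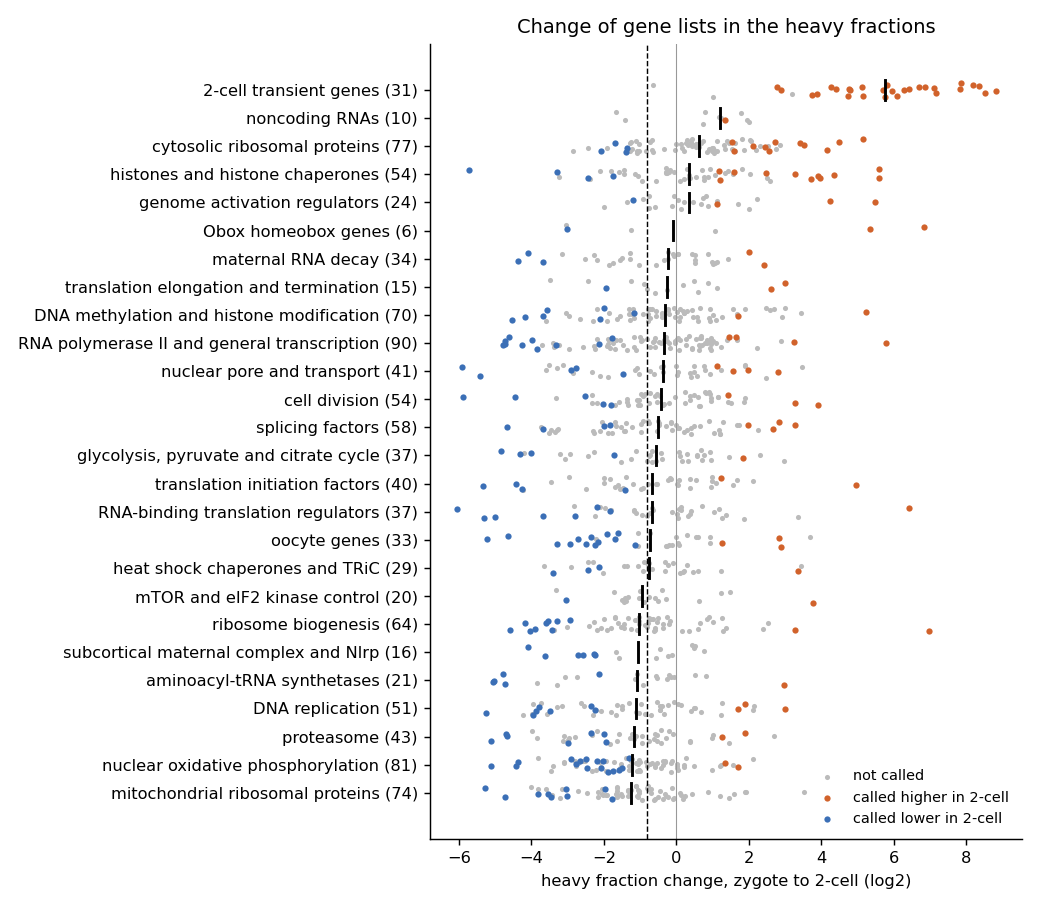
Change in the heavy fractions (log2, 2-cell minus zygote) of every tested member of the gene lists, with 1 point per gene (orange, called higher; blue, called lower; grey, not called), the median of each list as a bar and the number tested in brackets. The dashed line is the median of all genes tested. The 2-cell transient genes, most of which passed the filter only through the 2-cell gradients, have a median of 5.76, the cytosolic ribosomal proteins lie at 0.62, and that dashed line lies at -0.82.

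Of 54 histone and histone chaperone genes tested 11 rose and 4 fell (20.4% and 7.41%, beside 4.68% and 13.4% of all genes tested), 11 and 3 of them under all scalings, with a median of 0.35. Of the 54, 6 passed the filter only through the 2-cell gradients. H2ac23 and H2ac24, replication-dependent H2A genes picked here after their values were seen, rose from 2.52, 0.723 and 2.44 CPM and 2.12, 0.938 and 2.17 CPM to 199, 99.8 and 111 CPM and 185, 103 and 111 CPM, and their near-identical sequences leave the division of reads uncertain. H4c3, an H4 gene, rose from 20.8, 9.95 and 29.3 CPM to 584, 148 and 282 CPM (3.91 ± 0.67, adjusted p = 0.00978). Because the libraries were made from polyadenylated RNA, transcripts of H2ac23, H2ac24 and H4c3 without a poly(A) tail are largely missed. H2az1, of the variant H2A.Z, rose from 45.4, 13.5 and 23.2 CPM to 225, 478 and 330.1 CPM (3.70 ± 0.57, adjusted p = 0.00875). H1f1, a linker histone, rose from 176, 170.1 and 243 CPM to 613, 443 and 721 CPM (1.58 ± 0.30, adjusted p = 0.0135), in contrast to the oocyte linker histone H1f8, which fell. The histone chaperone Nasp fell from 173, 122 and 176 CPM to 29.6, 28.7 and 24.7 CPM (-2.45 ± 0.45, adjusted p = 0.0115), and Atrx, which deposits H3.3, from 282, 297 and 391 CPM to 0.159, 2.3 and 58.9 CPM (-5.71 ± 1.36, adjusted p = 0.0275), with 2-cell gradient C well above the other 2.

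The shares of chromatin modifiers and replication genes called were near those of all genes tested (4.68% higher, 13.4% lower). Of 70 genes of DNA methylation and histone modification 2 rose and 7 fell (2.86% and 10%, 2 and 2 genes under all scalings), with a median of -0.32 that turned positive under both other scalings. Hdac1, a histone deacetylase of the early embryo, rose from 0.337, 0.544 and 1.42 CPM to 109.8, 47.3 and 48.7 CPM (5.23 ± 0.87, adjusted p = 0.00935), and Dnmt1, the maintenance DNA methyltransferase, fell from 291, 266 and 424 CPM to 124, 59.6 and 67.5 CPM (-2.0 ± 0.42, adjusted p = 0.0174), the latter not under every scaling. Of 51 replication genes 3 rose and 7 fell (5.88% and 13.7%, 3 and 1 genes under all scalings, median -1.12). The 3 that rose serve nucleotide supply and the polymerase. Dut, which removes dUTP, rose from 78.9, 72.2 and 112 CPM to 717, 1030.3 and 452 CPM (3.0 ± 0.39, adjusted p = 0.00875), Rrm2, of ribonucleotide reductase, from 74.2, 80.9 and 95.6 CPM to 233, 274 and 467 CPM (1.89 ± 0.38, adjusted p = 0.0164) and Pold3, of DNA polymerase delta, from 153, 105 and 155 CPM to 557, 313 and 498 CPM (1.70 ± 0.35, adjusted p = 0.0166). Rrm2 was lower in 2-cell embryos in fraction 6 alone (-1.35), in fraction 8 alone (-0.15) and with the median of fractions 6 to 10 (-0.40), and Pold3 in fraction 8 alone (-0.25). Rfc3, of the clamp loader, fell from 95, 98.1 and 64.3 CPM to 0.0607, 9.68 and 0 CPM (-5.25 ± 1.14, adjusted p = 0.0203).

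Of 54 cell division genes 3 rose and 5 fell (5.56% and 9.26%, beside 4.68% and 13.4% of all genes tested), 3 and 2 of them under all scalings, with a median of -0.42 that turned positive under both other scalings. Ube2c, the ubiquitin-conjugating enzyme of the anaphase-promoting complex, rose from 262, 324 and 181 CPM to 594, 734 and 665 CPM (1.41 ± 0.29, adjusted p = 0.0171), and Ccne1, the cyclin of entry into S phase, from 30.7, 0.676 and 10.7 CPM to 115, 131 and 135 CPM (3.90 ± 1.08, adjusted p = 0.0462). Bub1b, of the spindle checkpoint, fell from 333, 224 and 156 CPM to 3.92, 33.2 and 5.85 CPM (-4.44 ± 0.83, adjusted p = 0.0126). Of 41 nuclear pore and transport genes 4 rose and 5 fell (9.76% and 12.2%, median -0.36, positive under both other scalings), and Nup214, a pore protein on the cytoplasmic side, rose from 1018, 782 and 727 CPM to 1797, 1566 and 2111 CPM (1.12 ± 0.21, adjusted p = 0.0119). Of 58 splicing factors 4 rose and 4 fell (6.90% each, median -0.51, positive under both other scalings), and Snrpg, a core protein of the spliceosomal snRNPs, rose from 78.5, 123 and 113 CPM to 439, 572 and 262 CPM (1.96 ± 0.40, adjusted p = 0.0162). The stages did not overlap in these genes.

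Of 81 nuclear genes of oxidative phosphorylation 2 rose and 16 fell (2.47% and 19.8%, beside 4.68% and 13.4% of all genes tested), with a median of -1.22 and 66 of 81 changes below 0, beside 7166 of 10535 over all genes. Under all scalings 3 of the 81 fell, near the 3.14% of all genes. Cox8a, of cytochrome c oxidase, rose from 577, 551 and 854 CPM to 2102, 2347 and 1883 CPM (1.70 ± 0.22, adjusted p = 0.00875), while Cox4i1, another subunit of that complex, fell from 316, 209.8 and 354 CPM to 72.9, 35.2 and 52 CPM (-2.46 ± 0.44, adjusted p = 0.0107) and Uqcrc2, of complex III, from 324, 306 and 192 CPM to 0.21, 32.2 and 10.5 CPM (-5.12 ± 1.17, adjusted p = 0.0237). The mitochondrial genome's own 13 protein genes, picked after their values were seen, gave 6 higher and 0 lower (median 2.22). COX1, encoded there and a partner of Cox8a and Cox4i1 in the same complex, rose from 183, 93.5 and 261 CPM to 983, 634 and 1031 CPM (2.38 ± 0.42, adjusted p = 0.0108). Transcripts of the mitochondrial genome are translated by mitochondrial ribosomes inside the organelle. All 13 of its protein genes also rose in the light fractions (median 4.39) and in the transcriptome (median 1.76). In the heavy change beyond the transcriptome 0 of the 13 were called. Of the 13, 2 passed the filter only through the 2-cell gradients. Of 37 genes of glycolysis, pyruvate and the citrate cycle 1 rose and 4 fell (2.70% and 10.8%), with a median of -0.57 that was 0.16 after quantile normalization.

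Of 43 proteasome genes 2 rose and 7 fell (4.65% and 16.3%, near the 4.68% and 13.4% of all genes tested), 2 and 4 of them under all scalings (median -1.16). Psmb6 and Psmb3, of the catalytic core's beta ring, rose from 96.8, 151 and 107 CPM and 233, 262 and 289 CPM to 325, 518 and 489 CPM and 509, 650.2 and 732 CPM. Psma7, of the alpha ring of the same core, fell from 743, 1174 and 502 CPM to 97.1, 187 and 47.7 CPM (-2.98 ± 0.55, adjusted p = 0.0121), so subunits of 1 particle moved in opposite directions. Of 29 chaperone genes 1 rose and 3 fell (3.45% and 10.3%, median -0.76). Hspb1, a small heat shock protein, rose from 36.3, 15.6 and 9.6 CPM to 184, 196 and 187 CPM (3.34 ± 0.59, adjusted p = 0.0107), and Hsp90aa1, the inducible HSP90, fell from 1154, 852 and 1506 CPM to 221, 387 and 203 CPM (-2.13 ± 0.34, adjusted p = 0.0088). Of 10 noncoding RNAs tested 1 rose, the 18S ribosomal RNA Rn18s, from 13207, 11216 and 17421 CPM to 38489.6, 29785 and 35663 CPM (1.33 ± 0.17, adjusted p = 0.00875), a call not kept under every scaling. The libraries were made from polyadenylated RNA, so Rn18s measures residual ribosomal RNA and not ribosome number.

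The transcriptome pools show how far the same changes appeared in the polyadenylated RNA of whole embryos, and they share no library with the gradients. Of 11873 genes tested there 4716 changed (39.7%), 3448 to a higher level (29.0%) and 1268 to a lower one (10.7%). Among the 9817 genes tested in both, 384 rose in both, 397 fell in both, 116 fell in the heavy fractions while rising in the transcriptome, and 1 gene did the reverse. A further 87 genes rose and 718 fell in the heavy fractions alone by this call, which does not test the difference. The test of the difference itself, an interaction term in 1 fit of gradients and pools over 12692 genes, called 3156 (24.9%), 225 with a higher change in the heavy fractions (1.77%) and 2931 with a lower one (23.1%). The median difference was -1.10. Under the 2 other scalings the split was 821 higher and 799 lower (quantile) and 1679 higher and 514 lower (median centring), and 194 higher and 383 lower genes were called under all 3. This fit gives each gene 1 variance over gradients and pools together. Where the gradients spread more than the pools, its SE and p-value come out too small. Calls beyond the transcriptome are then less certain than printed.

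**Figure D3:**
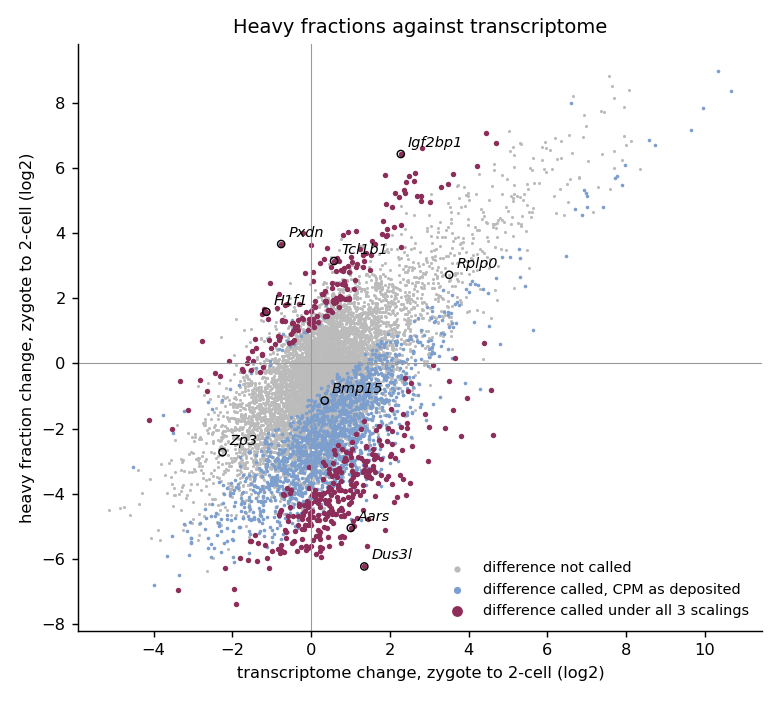
Change in the heavy fractions (y axis, log2) against the change in the transcriptome pools (x axis, log2), 2-cell minus zygote, with 1 point per gene for the 9817 genes tested in both. Blue points have a called difference, purple ones under all 3 scalings, and open circles mark named genes. The 2-cell transient genes lie high on both axes, and Dus3l lies at -6.23 in the heavy fractions and 1.35 in the transcriptome.

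Of the 225 genes with a positive difference 161 had a standard symbol and at least 50 CPM in the heavy fractions of the higher stage. Overlap between the stages was not part of this rule. Among these 161 the largest differences were those of Pxdn, Hltf, Igf2bp1, Gtf2i, Amn and Ankrd9. Pxdn, the matrix peroxidase peroxidasin, went from 13.7, 23.3 and 8.44 CPM to 447, 53.3 and 279 CPM in the heavy fractions (3.66 ± 0.88), while the transcriptome pools stood at 35.8 to 48.6 CPM in zygotes and at 16.2 to 28.6 CPM in 2-cell embryos. The difference was 4.42 ± 0.82 (adjusted p = 0.00181). Its SE lies under the 0.88 of the heavy change alone because the pools enter the same variance. Igf2bp1 rose by 6.42 in the heavy fractions and by 2.28 in the transcriptome, where it stood at 0 to 0.117 CPM in zygotes and 2.61 to 5.42 CPM in 2-cell embryos (difference 4.14 ± 0.64, adjusted p = 0.000496). Amn, the cubilin partner amnionless, had 0 reads in all zygote heavy libraries and 125, 71.2 and 100.5 CPM in the 2-cell gradients, at least 2433-fold higher, with a transcriptome change of 2.81. For each of these 3 the heavy values of the stages did not overlap. Hltf, a helicase of stalled replication forks, was not called in the heavy fractions alone (12.2, 2.31 and 0.964 CPM against 50.1, 245 and 26.1 CPM, adjusted p = 0.0562).

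Among the 709 genes with a negative difference that met the rule, the largest differences were those of Dus3l, Mroh1, Ncln, Ipo13, Atg9a and Itprip. Dus3l, a dihydrouridine synthase of tRNA, fell from 57.2, 117 and 85.7 CPM to 0.29, 0.0534 and 0.0393 CPM in the heavy fractions and rose in the transcriptome, where the pools held 0.197 to 1.85 CPM in zygotes and 2.61 to 4.36 CPM in 2-cell embryos (difference -7.58 ± 0.56, adjusted p = 7.63e-06). Ipo13, a nuclear import receptor, fell from 76.9, 124 and 24 CPM to 0.0454, 0.0356 and 0 CPM in the heavy fractions, against 1.33 to 2.8 CPM and 0.846 to 6.74 CPM in the pools (difference -6.18 ± 0.79, adjusted p = 0.000131). Atg9a, the membrane protein that starts autophagosomes, fell from 102, 270.4 and 82.5 CPM to 4.71, 2.53 and 0.857 CPM (difference -6.14 ± 0.70, adjusted p = 6.26e-05). In these 3 the heavy 2-cell values were at or under 4.71 CPM, while their transcriptome changes were 1.35, 0.26 and 0.83, of which only that of Dus3l was called. In zygotes Dus3l and Ipo13 stood far higher in the heavy fractions than in the pools, and so did Igf2bp1 in 2-cell embryos. Fractions and pools were amplified as separate libraries, and the part of this in the differences was not tested. Aars was a further gene called in opposite directions, at -5.05 in the heavy fractions and 1.01 in the transcriptome, and H1f1 was the 1 gene that rose in the heavy fractions and fell in the transcriptome (-1.14, difference 2.72 ± 0.41, adjusted p = 0.00042).

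The lists can be set against all genes in the same comparison. Of all genes tested 29.0% rose and 10.7% fell in the transcriptome, with a median change of 0.41. The interaction called 1.77% higher and 23.1% lower, with a median of -1.10, and 194 and 383 of 12692 under all scalings. In the transcriptome 61 of 77 cytosolic ribosomal protein genes rose and 2 fell, with a median change of 2.09. The interaction called 2 of 79 higher and 37 lower, with a median of -1.57, and 2 and 2 under all scalings. Rplp0 had a transcriptome change of 3.51, and its difference of -0.79 ± 0.21 was under the minimum of 1 and so not called (adjusted p = 0.015). Of the 36 2-cell transient genes 34 rose in the transcriptome (median 5.87), and the interaction called 1 higher and 12 lower, of which 1 and 1 under all scalings. All 8 Eif1ad copies were among the lower ones (median difference -2.08), 0 of them under all scalings. Nuclear oxidative phosphorylation genes had 25 of 82 higher and 4 lower in the transcriptome. That share of rises and the median of 0.41 were near those of all genes. The interaction called 0 higher and 42 of 83 lower, 3 under all scalings. Oocyte genes had 6 of 33 higher and 8 lower in the interaction (4 and 1 under all scalings), the lower share near that of all genes. Omt2b stood at 2.11 ± 0.22 (adjusted p = 3.6e-05).

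The light side, fractions 1 to 5, came from the same gradients. There 2672 of 11521 genes changed (23.2%), 950 to a higher level (8.25%) and 1722 to a lower one (14.9%). Cytosolic ribosomal protein genes had 6 of 76 higher and 13 lower in the light fractions, with a median of -0.48 beside 0.62 in the heavy ones. A shift along the gradient was tested as the change of the heavy minus the light value within a gradient. None of 12633 genes was called (0%) by limma, and 1838 had an unadjusted p under 0.05. With all 8 stages in the fit 834 genes were called, 297 higher and 537 lower. Rplp0 serves as an example, at 1290, 2237 and 899 CPM in fractions 1, 2 and 3 and 477, 331 and 323 CPM in fractions 8, 9 and 10 of zygotes (means of 3 gradients), and at 596, 2429 and 1003 CPM and 3092, 4328 and 3652 CPM in the same fractions of 2-cell embryos. Its heavy minus light change was 2.70 ± 0.59 (adjusted p = 0.137), so it did not pass over all genes. By the mean of 3 gradients Tcl1b1 was higher in every 2-cell fraction than in the same zygote fraction, at 552 against 2425 CPM in fraction 1 and 1913 against 8383 CPM in fraction 10. Ooep was lower in every 2-cell fraction, at 4591 against 1194 CPM in fraction 1 and 6269 against 625 CPM in fraction 10.

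**Figure D4:**
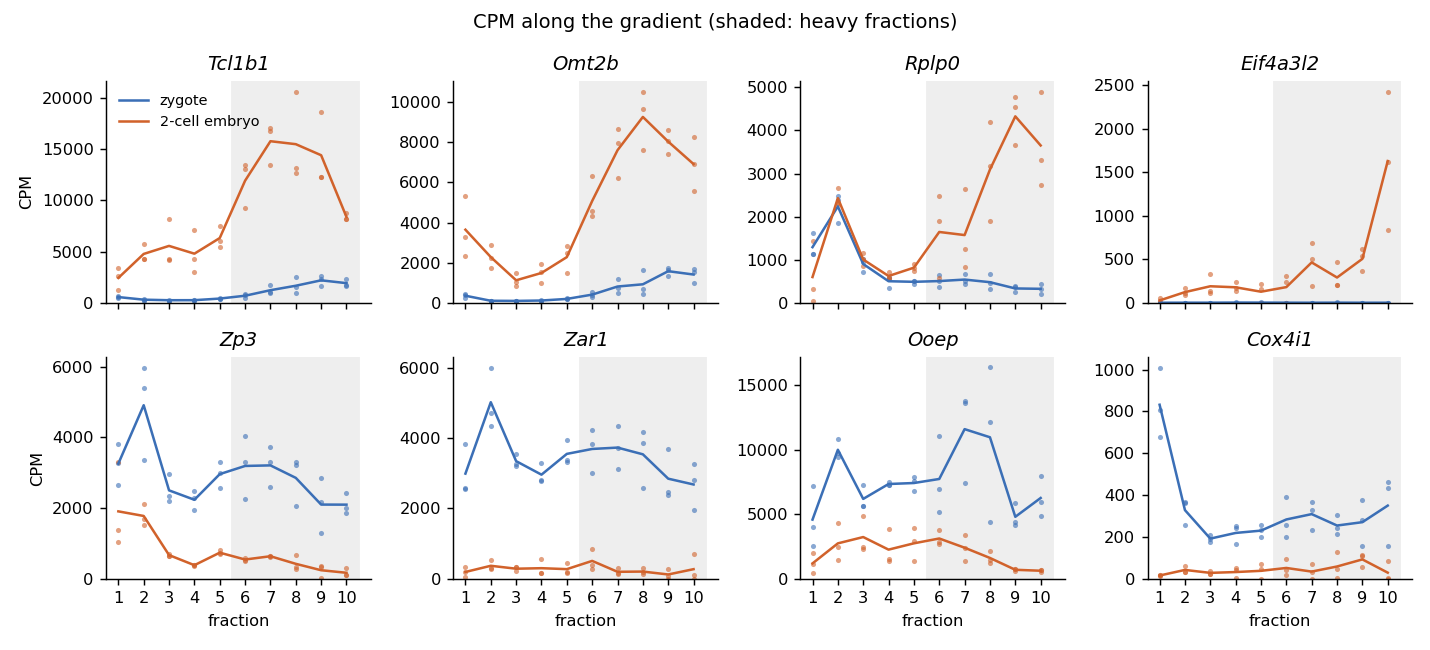
CPM (y axis, linear) in each of the 10 fractions (x axis, fraction number) for 8 named genes, with 1 point per gradient and a line through the mean of the 3 gradients of zygotes (blue) and of 2-cell embryos (orange). The heavy fractions are shaded. Rplp0 separates the stages in fractions 8 to 10 and not in fractions 1 to 3, the mean of Tcl1b1 lies higher in 2-cell embryos in all 10 fractions, and that of Ooep lies lower.

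The genes that rose had shorter coding sequences by their median. With transcripts matched by symbol for 85.0% of the higher, 93.6% of the lower and 93.5% of all genes tested, the median coding length was 939 bases for genes that rose, 1422 for genes that fell and 1398 for all. The median 3′ UTR length was 552, 754 and 917 bases. The cytoplasmic polyadenylation letters TTTTAT or TTTTAAT, read on the transcript's strand, were found in the last 100 bases of the 3′ UTR in 21.0% of the genes that rose, 18.2% of those that fell and 19% of all. These describe the called genes, and the part of transcript length in the calls was not tested.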

How the data were processed

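RNA of 10 gradient fractions and of whole-embryo pools was sequenced, per the labels' protocols, after Smart-seq v4 amplification and Nextera XT tagmentation, as paired ends of 150 bases on a HiSeq X. The submitters' processing notes name Trim Galore 0.6.7, FastQC, HISAT2 2.2.1, featureCounts 2.0.1, edgeR and the build GRCm39, without settings. The authors deposited 1 table of CPM values per gene symbol and library (15854 symbols, 272 libraries). Some deposited columns exceed a total of 1 M because 159 symbols in 76 groups repeat identical values, and such columns, classed as signal for the unit check, hold the authors' CPM all the same. 1 symbol per group was kept, which left 15771. In 271 libraries 100% of the lower values, those checked, were whole multiples of 1 read (tolerance 0.05 reads), and reads were recovered. The unit check did not class 1 library, 2-cell fraction 7 of gradient B, as recovered. It was left out of the count models, though 100% of its checked values were whole too.

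Fractions 6 to 10 were taken as heavy by their number. Their mean CPM weighs each fraction equally whatever RNA it held. Stages were compared with limma 3.58.1 in R 4.3.3 (lmFit and eBayes with trend, two-sided) on log2(CPM + 1), for genes with at least 1 CPM in 3 of 6 gradient means, or 4 samples where transcriptomes entered. Fold changes on this scale understate low genes. The edgeR 4.0.16 test on recovered reads called 1020 genes, and DESeq2 1.42.0 called 2421. Over 30 pairs of replicate libraries the lowest chi-square per degree of freedom was 167, so each counted once. Amplified reads carry no molecular identifiers, so floors of 3 reads cover counting error only. The 2-cell transcriptome columns are lettered E to H and the labels A to D, so they were used without pairing.

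The members, gene lists and rules were chosen with earlier results of these data known. Genes were named as the 15 largest rises and falls at 50 CPM or more with a standard symbol and no overlap between stages, the 6 largest in each direction beyond the transcriptome, up to 4 called members of each list and direction, of which a part is shown, and the markers. Families described as chosen after their values were seen fall outside that rule. A list of mitochondrially encoded genes matched no symbol as spelled, so the genome's 13 genes were taken by their own symbols. Transcripts for lengths came from GENCODE vM21, matched by symbol, and promoters from RefSeq GRCm38.p6, used for sequence only. Scripts were tested on simulated data.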

Additional observations from a re-analysis of the deposited data

Results flagged for a closer look

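3 of the named genes were called in opposite directions in the heavy fractions and in the transcriptome, with the difference tested as an interaction in limma. The difference was -7.58 for Dus3l and -6.06 for Aars, which fell in the heavy fractions and rose in the transcriptome, and 2.72 for H1f1, which did the reverse. No transcriptome pool stood apart from its 3 partners in the 23 groups tested over the 12 genes whose transcriptome values are given.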

How the results depend on the processing

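The count of genes called in the heavy fractions moved most with how the 5 fractions were combined. It was 3920 with their median, 5099 with the mean of their log2 values, 908 in fraction 9 alone, 3023 with all 8 stages in the fit, 1220 with a pseudocount of 10, 1054 with a minimum of 10 CPM, 1140 after quantile normalization and 1020 with edgeR. Leaving out 1 gradient gave 1027 to 2369 calls, with 856 genes called in all 6 such fits. For the light fractions the range was 1209 to 3409, for the transcriptome 4647 to 4830 and for the change beyond the transcriptome 2442 to 4551. The heavy minus light count stayed at 0 except for 834 with all 8 stages in the fit. The transcriptome gave 2103 calls with a pseudocount of 10 and 2834 with a minimum of 10 CPM. The change beyond the transcriptome gave 2078, 1621 and, after quantile normalization, 1620.

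With a replicate block for the gradient letter the heavy fractions gave 1421 calls (368 higher, 1053 lower). Deviations of same-lettered gradients correlated at -0.03, 0.05 and 0.05, so the letters share only a name. No paired analysis was possible for the transcriptome pools because their 2-cell columns carry other letters.

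Some named genes changed sign in single fractions or combinations. In fraction 6 alone Eif4e gave -3.43, Pan3 -1.02, Rrm2 -1.35 and Sp110 0.0705, and in fraction 7 alone Pold3 gave -0.00674. In fraction 8 alone E2f1 gave -0.0311, Eef1a1 -1.15, Hltf -2.12, Pan3 -1.60, Pold3 -0.25, Rrm2 -0.15 and Arg2 -0.11. In fraction 9 alone Pan3 gave -0.39 and Arg2 -0.000834. In fraction 10 alone E2f1 gave -2.73, Eif4ebp1 -0.37, Rn18s -0.38 and Arg2 -1.83. Hltf gave -0.22 over fractions 6 to 9, Arg2 -0.0221 over fractions 8 to 10, and Rrm2 -0.40 with the median of the fractions. The causes were not tested. Depth limits falls to the floor of 3 reads.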
